A study of Homo sapiens with 12 samples.

Results

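Expression of 9 genes that encode enzymes of the tricarboxylic acid (TCA) cycle or malic enzymes was described in parental and oxamate-resistant MIAPaCa2 cells. The genes were chosen by symbol: CS, IDH1, IDH2, IDH3A, OGDH, SUCLA2, FH, ME1 and ME2. They are 9 of the 26475 gene symbols counted, and all 9 passed the filter on low counts that left 14582 genes for testing. Sodium oxamate is an inhibitor of lactate dehydrogenase A (LDHA), the enzyme that converts pyruvate to lactate. Polyadenylated RNA was sequenced from 4 groups of 3 replicates: untreated parental cells, parental cells given the LDHA inhibitor, untreated resistant cells and resistant cells given the LDHA inhibitor. MIAPaCa2 is an established line of pancreatic ductal adenocarcinoma, and the resistant cells were a polyclonal population isolated from it after continuous culture with sodium oxamate, so that 1 resistant population was compared with its parent. How long the RNA samples were exposed to the inhibitor is not given in the sources used here, and neither is whether replicates came from separate cultures, so p-values measure only the spread between these samples.

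The TCA cycle oxidizes acetyl groups from pyruvate, fatty acids and amino acids in the mitochondrial matrix and hands the electrons to the respiratory chain as NADH and FADH2. When LDHA is blocked, pyruvate that would leave the cell as lactate can enter the mitochondria instead, and NADH from glycolysis has to be reoxidized by other routes. Malic enzymes turn malate from the cycle back into pyruvate, and together with the NADP-dependent isocitrate dehydrogenases they supply NADPH for lipid synthesis and defence against oxidants.

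Total expected counts per library ran from 46698729 to 114222169, and every parental library was deeper than every resistant library. The 108 member values lay between 1248 and 28102 counts, so none was limited by a lack of reads. Levels are given as CPM, read counts relative to the TMM-scaled size of the library, with means ± SD over n = 3. Genes were tested in edgeR by quasi-likelihood and called when p, adjusted by Benjamini-Hochberg over all 14582 genes, was under 0.05. The epithelial and mesenchymal markers KRT8, KRT18 and VIM were at 671 CPM or more in all libraries. They averaged 1458, 1249 and 9445 CPM in untreated parental cells. In untreated resistant cells they were lower, at 676, 773 and 6282 CPM. The 7 markers of other cells summed to at most 2.19 CPM, mainly the fibroblast collagen COL1A1, with CD3E, PRSS1 and INS at 0. LDHA itself ran from 944 to 1701 CPM over all libraries. It averaged 1074 ± 13.6 CPM untreated and 1647 ± 87.6 CPM with oxamate in parental cells. In resistant cells it averaged 960 ± 13.8 CPM untreated and 1213 ± 13.4 CPM with oxamate. The oxamate libraries were above the untreated ones in both kinds of cell. Its mRNA level is no check of an inhibitor that acts on the enzyme. The nuclear-retained RNAs MALAT1, NEAT1, KCNQ1OT1 and MIAT set libraries apart: they summed to between 321 and 357 CPM in untreated parental cells, to 544, 557 and 1187 CPM in oxamate-treated parental cells, to 534, 583 and 1112 CPM in untreated resistant cells, and to between 1080 and 1407 CPM in oxamate-treated resistant cells. In oxamate-treated parental and in untreated resistant cells the highest value was that of replicate 3, and the counts of called members without these libraries are given with the limits at the end. Whether nuclear RNA has a part in the other results was not tested.

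Per kilobase of the longest annotated transcript, the 9 genes fell into a higher and a lower set in all 4 groups. CS, OGDH, IDH2, IDH1 and FH made up the higher set, between 44.5 and 68.3 CPM per kilobase in untreated parental cells. ME2, SUCLA2, ME1 and IDH3A made up the lower set, between 7.32 and 17.3 CPM per kilobase in the same cells. The order inside each set changed with the definition of gene length and was not read, and the division into these sets held with either length.

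CS encodes citrate synthase, which joins acetyl-CoA to oxaloacetate at the entry of the cycle. Its level was 207, 207 and 213 CPM in untreated parental cells and 205, 205 and 206 CPM after oxamate. In resistant cells it was 169, 169.7 and 171 CPM untreated and 158, 159.9 and 163 CPM after oxamate. All 6 resistant libraries were below all 6 parental libraries, and within the resistant cells the oxamate libraries were below the untreated ones. The group means were 209 ± 3.51, 205 ± 0.912, 170.2 ± 1.04 and 160.3 ± 2.49 CPM in this order. CS fell by 0.29 on the log2 scale in untreated resistant cells relative to untreated parental cells (SE 0.022, edgeR adjusted p = 7.06e-09) and by 0.36 between the oxamate-treated groups (SE 0.023, edgeR adjusted p = 4.10e-10). In bulk RNA, less transcript per cell and fewer cells that carry it cannot be told apart, here and for the other genes.

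IDH1, IDH2 and IDH3A encode isocitrate dehydrogenases that make 2-oxoglutarate from isocitrate. IDH1 is the cytosolic and peroxisomal NADP-dependent enzyme, IDH2 is its mitochondrial counterpart, and IDH3A is the catalytic subunit of the NAD-dependent enzyme that runs the cycle. IDH2 was at 139, 129.6 and 132 CPM in untreated parental cells and at 160.2, 157 and 152 CPM in oxamate-treated parental cells. In resistant cells it was at 83.3, 88.7 and 84.0 CPM untreated and at 85.3, 88.6 and 86.4 CPM after oxamate. The parental groups did not overlap with each other or with the resistant cells, whereas the resistant groups overlapped. IDH2 rose by 17.2% with oxamate in parental cells, a log2 fold change of 0.23 with a 95% interval of 0.16 to 0.30 (edgeR adjusted p = 1.56e-05), and was 0.023 on the log2 scale in resistant cells with an interval of -0.048 to 0.095 (edgeR adjusted p = 0.655). Among the members it differed most between resistant and parental cells, by a log2 fold change of -0.64 in untreated cells (SE 0.033, edgeR adjusted p = 5.52e-11) and of -0.85 in oxamate-treated cells (SE 0.033, edgeR adjusted p = 1.05e-12), which is 0.640 and 0.555 of the parental level. The gene lies on chromosome 15, positions 90083045 to 90102504 of GRCh38, on the minus strand, and its longest transcript has 11 exons.

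IDH1 was at 109, 112 and 117 CPM in untreated parental cells and at 117, 112 and 108 CPM after oxamate. In resistant cells it was at 86.7, 86.8 and 83.9 CPM untreated and at 83.9, 81.2 and 80.0 CPM after oxamate. The oxamate and untreated libraries overlapped in both kinds of cell, and all resistant libraries were below all parental ones. The log2 fold change between resistant and parental cells was -0.39 untreated (SE 0.034, edgeR adjusted p = 3.81e-08) and -0.46 with oxamate (SE 0.035, edgeR adjusted p = 4.05e-09).

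IDH3A moved against IDH2 in parental cells. It was at 29.7, 29.8 and 31.1 CPM untreated and at 24.1, 23.8 and 22.9 CPM after oxamate, and in resistant cells it was at 27.2, 27.0 and 24.7 CPM untreated and at 25.3, 24.7 and 24.1 CPM after oxamate. The untreated parental libraries were above all others, and the 3 remaining groups lay close together, with untreated resistant replicate 3 inside the range of the oxamate-treated resistant libraries. IDH3A fell by 21.9% with oxamate in parental cells, a log2 fold change of -0.36 with an interval of -0.44 to -0.27 (edgeR adjusted p = 1.70e-06). In resistant cells the log2 fold change was -0.094, with an interval of -0.18 to -0.0046 (edgeR adjusted p = 0.123). Without untreated resistant replicate 3 and oxamate-treated parental replicate 3, the libraries of their groups richest in nuclear-retained RNA, it was -0.14 (edgeR adjusted p = 0.0142). The catalytic subunit did not share its direction with its partners: of the regulatory subunits of the same enzyme, IDH3G rose in parental cells with oxamate by 0.24 on the log2 scale (edgeR adjusted p = 1.12e-05) and IDH3B, named here after its values were seen, rose by 0.076 (edgeR adjusted p = 0.0402), a call lost with RLE factors and with library size alone. The exons of the longest IDH3A transcript share 2608 bases with ACSBG1 on the opposite strand, whose counts came to 0.0960% of those of IDH3A, and the sources used here do not say whether counting used the strand.

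OGDH, SUCLA2 and FH encode enzymes of the later steps. OGDH is the first subunit of the 2-oxoglutarate dehydrogenase complex. It was at 265, 258 and 260.0 CPM in untreated parental cells and at 232, 231 and 234 CPM after oxamate, against 224, 229.6 and 228 CPM in untreated and 229, 231 and 231 CPM in oxamate-treated resistant cells. As for IDH3A, the untreated parental libraries stood above the 9 others. The log2 fold change with oxamate was -0.17 in parental cells (SE 0.022, edgeR adjusted p = 6.69e-06) and 0.021 in resistant cells, with an interval of -0.026 to 0.067 (edgeR adjusted p = 0.529). Its paralogue OGDHL, at 19.4 ± 0.111 CPM in untreated parental cells and 25.9 ± 0.494 CPM after oxamate, rose by 0.42 on the log2 scale in the same comparison (edgeR adjusted p = 1.62e-07).

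SUCLA2, the ATP-forming subunit of succinyl-CoA synthetase, had means of 31.4 ± 0.586 CPM in untreated and 30.8 ± 1.54 CPM in oxamate-treated parental cells, and of 26.9 ± 0.250 CPM in untreated and 25.5 ± 0.640 CPM in oxamate-treated resistant cells. All 6 resistant libraries were below all 6 parental ones. The log2 fold change between resistant and parental cells was -0.22 untreated (SE 0.037, edgeR adjusted p = 4.43e-05) and -0.28 with oxamate (SE 0.038, edgeR adjusted p = 5.94e-06).

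FH encodes fumarase, which hydrates fumarate to malate. It was at 81.7, 80.7 and 77.7 CPM in untreated parental cells, at 74.1, 73.2 and 68.8 CPM in oxamate-treated parental cells, at 60.4, 57.8 and 56.8 CPM in untreated resistant cells and at 56.8, 56.0 and 53.5 CPM in oxamate-treated resistant cells. The parental groups did not overlap with each other or with the resistant groups, which overlapped in their closest libraries. FH fell by 0.15 on the log2 scale with oxamate in parental cells (SE 0.034, edgeR adjusted p = 1.17e-03), and between resistant and parental cells its log2 fold change was -0.46 untreated (SE 0.035, edgeR adjusted p = 6.99e-09) and -0.38 with oxamate (SE 0.036, edgeR adjusted p = 6.62e-08).

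In untreated cells the malic enzymes were the members that differed least between resistant and parental cells. ME1, the cytosolic NADP-dependent enzyme, was at 38.1, 38.1 and 39.9 CPM in untreated and 37.6, 36.7 and 36.2 CPM in oxamate-treated parental cells, and at 37.1, 34.7 and 35.7 CPM in untreated and 34.1, 35.1 and 34.2 CPM in oxamate-treated resistant cells. The log2 fold change between resistant and parental cells was -0.11 untreated (SE 0.032, edgeR adjusted p = 5.80e-03) and -0.096 with oxamate (SE 0.034, edgeR adjusted p = 0.0157), and both calls were lost with upper-quartile factors. Its response to oxamate was not called in either kind of cell, at -0.070 in parental cells (edgeR adjusted p = 0.0740), where the groups did not overlap, and -0.056 in resistant cells (edgeR adjusted p = 0.253), where they did. ME2, the mitochondrial enzyme that uses NAD or NADP, was at 158, 163 and 169 CPM in untreated parental cells and at 147, 147 and 136 CPM after oxamate. In resistant cells it was at 161, 159.6 and 159 CPM untreated and at 151, 151 and 146 CPM after oxamate. The untreated groups overlapped, and the oxamate libraries were lower in both kinds of cell. ME2 fell by 0.19 on the log2 scale with oxamate in parental cells (SE 0.033, edgeR adjusted p = 1.33e-04) and by 0.099 in resistant cells (SE 0.033, edgeR adjusted p = 0.0425). The resistant call was lost in several alternatives listed at the end. Between resistant and parental cells the log2 fold change of ME2 was -0.028 untreated, with an interval of -0.097 to 0.042 (edgeR adjusted p = 0.451), and 0.061 with oxamate, with an interval of -0.0096 to 0.13 (edgeR adjusted p = 0.102).

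**Figure D1:**
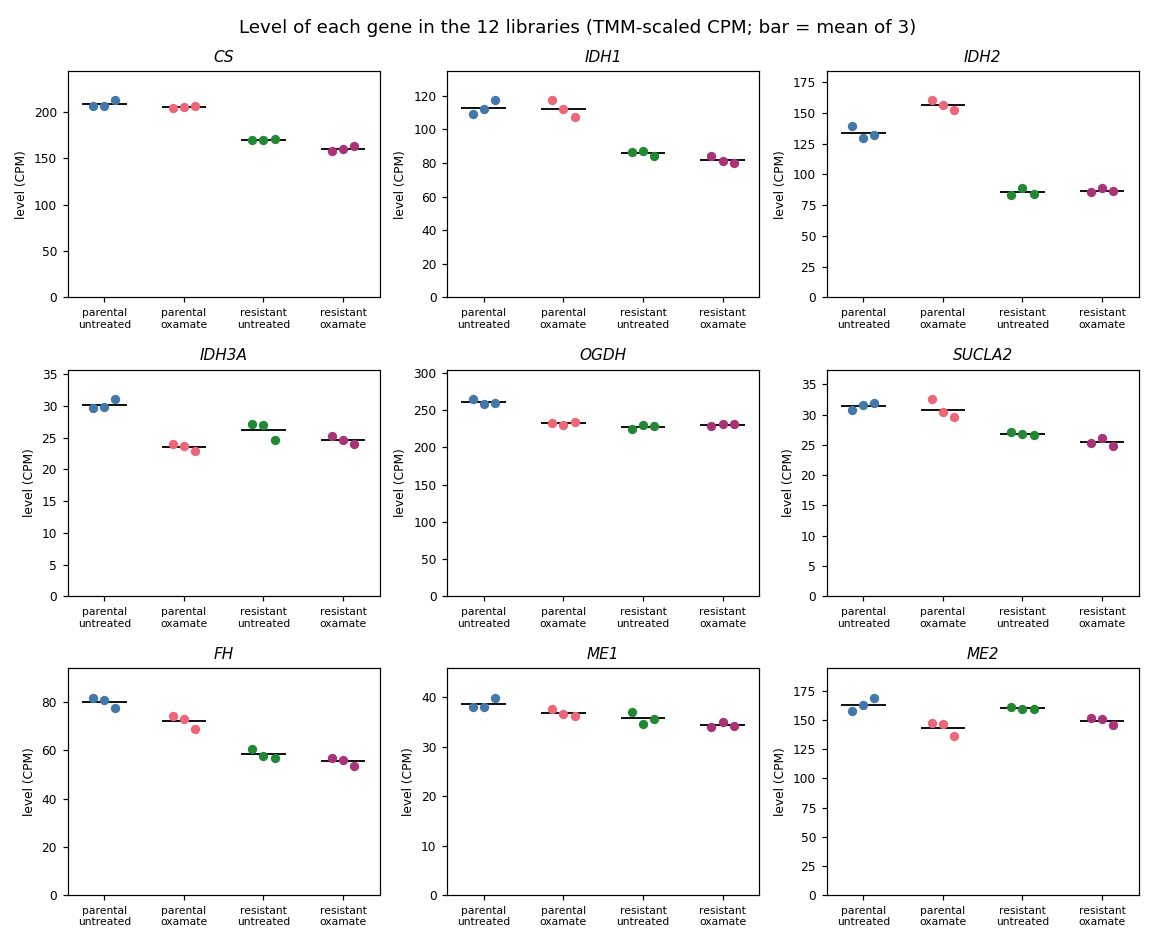
Level of each of the 9 genes in each of the 12 libraries, in CPM after TMM scaling, with a bar at the mean of 3 replicates and a vertical axis from 0 in every panel. For CS, IDH1, IDH2, SUCLA2 and FH all resistant libraries lie below all parental ones, and for IDH3A and OGDH the untreated parental libraries lie above the other 9.

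The first question was how parental cells responded to oxamate. Of the 9 members 5 were called, with IDH2 higher and IDH3A, OGDH, FH and ME2 lower, while CS, IDH1, SUCLA2 and ME1 were not called. Of all genes tested 58.7% were called in this comparison, 28.3% as higher and 30.4% as lower, so that being called was common among all genes too. Groups did not overlap for 7 members, 1 higher and 6 lower, against 61.5% of all genes, 29.6% higher and 31.9% lower. The median log2 fold change was -0.070 over the members and 0.0030 over all genes. None of the members passed the study's threshold of an unadjusted p under 0.05 with a fold change over 1.5, which 9.88% of all genes passed.

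In resistant cells the same question gave 2 calls. CS and ME2 were called as lower, no member was called as higher, and 7 were not called, against 21.5% of all genes, 9.01% as higher and 12.5% as lower. CS fell by 0.086 on the log2 scale (SE 0.023, edgeR adjusted p = 0.0150). Groups did not overlap for CS, SUCLA2 and ME2, all lower, against 41% of all genes, 18.7% higher and 22.4% lower. The median over the members was -0.073 and that over all genes -2.06e-05, and none of the members passed the study's threshold, which 2.5% of all genes passed. The difference between the oxamate responses was itself tested. It was called for IDH2, with a log2 difference of -0.21 (SE 0.046, edgeR adjusted p = 1.93e-03), for IDH3A, with 0.26 (SE 0.058, edgeR adjusted p = 1.62e-03), and for OGDH, with 0.19 (SE 0.031, edgeR adjusted p = 1.30e-04), each in the direction of a smaller response in resistant cells. For the 6 other members it was not called, with the interval for FH, for example, running from -0.025 to 0.19 and that for ME2 from -0.010 to 0.19, so a difference of that size was not excluded. The 3 calls among 9 members, 2 higher and 1 lower, stand against 44.2% of all genes, 22.7% higher and 21.4% lower. None of the members passed the study's threshold for this difference, and 8.48% of all genes did.

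**Figure D2:**
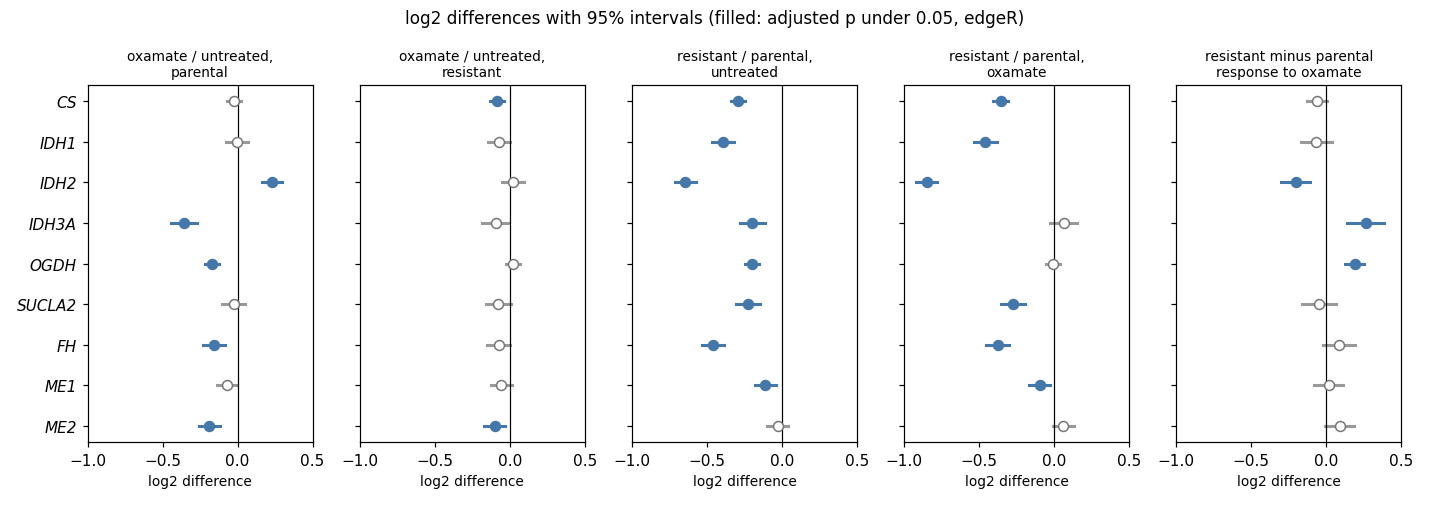
Log2 differences with 95% intervals for the 9 genes in the 4 comparisons and for the resistant minus the parental response to oxamate, with filled symbols at an adjusted p under 0.05. In parental cells with oxamate IDH2 (0.23) and IDH3A (-0.36) lie on opposite sides of 0, and in both comparisons of resistant with parental cells IDH2 lies farthest to the left (-0.64 and -0.85).

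Resistant cells were compared with parental cells without and with oxamate. These comparisons share no library with each other, but each shares its groups with the comparisons above. In untreated cells 8 members were called, all as lower in resistant cells, and ME2 was not, against 75.7% of all genes, 38.4% as higher and 37.3% as lower. The median log2 fold change was -0.22 over the members and 0.025 over all genes. With oxamate 6 members were called, again all as lower, against 80.3% of all genes, 40.6% as higher and 39.7% as lower, and IDH3A, OGDH and ME2 were not called. The median was -0.28 over the members and 0.015 over all genes. Groups did not overlap for the same members that were called, 8 untreated and 6 with oxamate, all lower. Of all genes 77.6% did not overlap untreated, 37.9% as lower, and 81.2% with oxamate, 40.3% as lower. IDH2 alone passed the study's threshold in both comparisons. That threshold was passed by 23.4% of all genes untreated, 6.14% as lower, and by 34.3% with oxamate, 11.4% as lower.

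These directions rest on how the libraries are scaled to each other. Without TMM factors, scaled by library size alone, the median of all genes moved by 0.22 in the untreated and by 0.32 in the oxamate comparison of resistant with parental cells, and the calls over all genes moved from 5602 higher and 5436 lower to 8540 and 2769, and from 5923 and 5785 to 9133 and 2819. Under that scaling 4 members were called as lower and 2 as higher in untreated resistant cells, and 2 as lower and 4 as higher with oxamate. Upper-quartile factors gave 7 as lower and 0 as higher untreated, and 5 as lower and 3 as higher with oxamate. IDH1 and IDH2 were called as lower in both comparisons under all scalings tried, with log2 fold changes of -0.43 and -0.53 for IDH2 by library size alone. CS and FH kept their negative sign in both, with CS at -0.033 and FH at -0.051 in oxamate-treated cells no longer called. The sign turned to positive for IDH3A, OGDH, ME1 and ME2 in untreated cells, at 0.021, 0.021, 0.11 and 0.19, and for OGDH, SUCLA2 and ME1 in oxamate-treated cells, at 0.31, 0.049 and 0.23. For the responses to oxamate the split of all genes moved from 4124 higher and 4439 lower to 2853 and 5922 in parental cells, from 1314 and 1825 to 1753 and 1179 in resistant cells, and for the difference between the responses from 3313 and 3125 to 5050 and 1756. IDH2 stayed higher and IDH3A lower with oxamate in parental cells under that scaling, at 0.15 and -0.43.

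**Figure D3:**
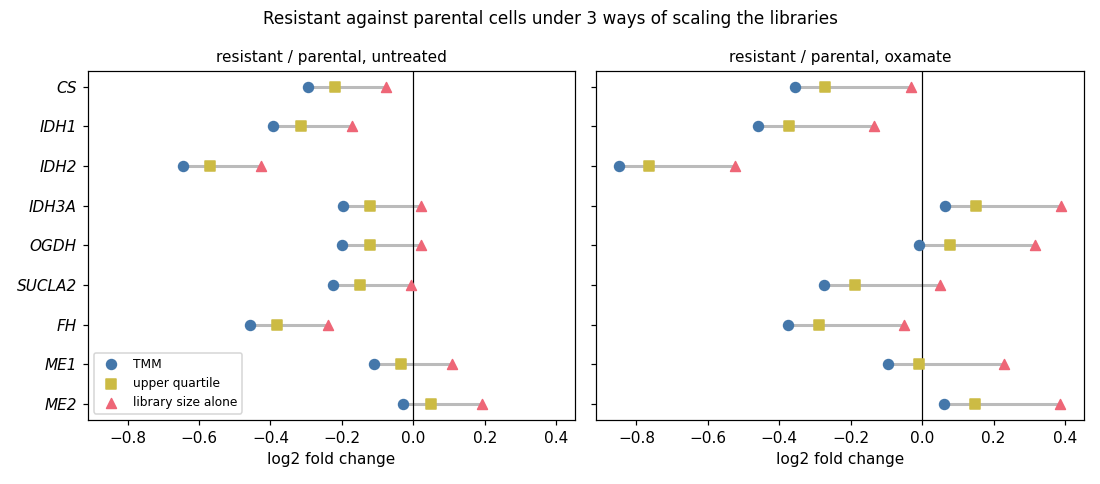
Log2 fold change of the 9 genes between resistant and parental cells, untreated (left) and with oxamate (right), under TMM, upper-quartile factors and library size alone. Library size alone moves all genes to the right, IDH1, IDH2, CS and FH stay below 0 in both panels, and IDH3A, OGDH, ME1 and ME2 end above 0 in both.

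Ratios of a pair of genes within a library do not depend on scaling, and 12 such differences were tested, each with a two-sided exact permutation test whose smallest possible p is 0.1 with 3 against 3 libraries. The ratio of IDH2 to IDH3A counts was 4.68, 4.35 and 4.24 in untreated parental cells and 6.65, 6.60 and 6.65 after oxamate. In resistant cells it was 3.06, 3.29 and 3.40 untreated and 3.38, 3.59 and 3.59 after oxamate. The oxamate-treated parental libraries were the highest by a wide gap, and every resistant library was below every parental one. The ratio was 1.5-fold higher with oxamate in parental cells, where the groups did not overlap (exact permutation p = 0.1, adjusted p = 0.133 over the 12 tests). It was 1.08-fold in resistant cells, where the groups overlapped (exact permutation p = 0.2, adjusted p = 0.2). Relative to parental cells it was 0.735 untreated and 0.530 with oxamate (exact permutation p = 0.1 for each, adjusted p = 0.133).

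The ratio of IDH1 to IDH2, cytosolic to mitochondrial NADP-dependent enzyme, averaged 0.844 in untreated and 0.718 in oxamate-treated parental cells, and 1.01 in untreated and 0.942 in oxamate-treated resistant cells. Resistant libraries were above parental ones in both comparisons, and oxamate libraries were below untreated ones in parental cells (exact permutation p = 0.1 for each, adjusted p = 0.133), while in resistant cells the groups overlapped. The ratio of ME1 to ME2 stayed between 0.217 and 0.266 in all libraries. It was higher with oxamate in parental cells by 0.12 on the log2 scale, and between resistant and parental cells it differed by -0.084 untreated and -0.16 with oxamate, each without overlap (exact permutation p = 0.1 for each, adjusted p = 0.133).

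**Figure D4:**
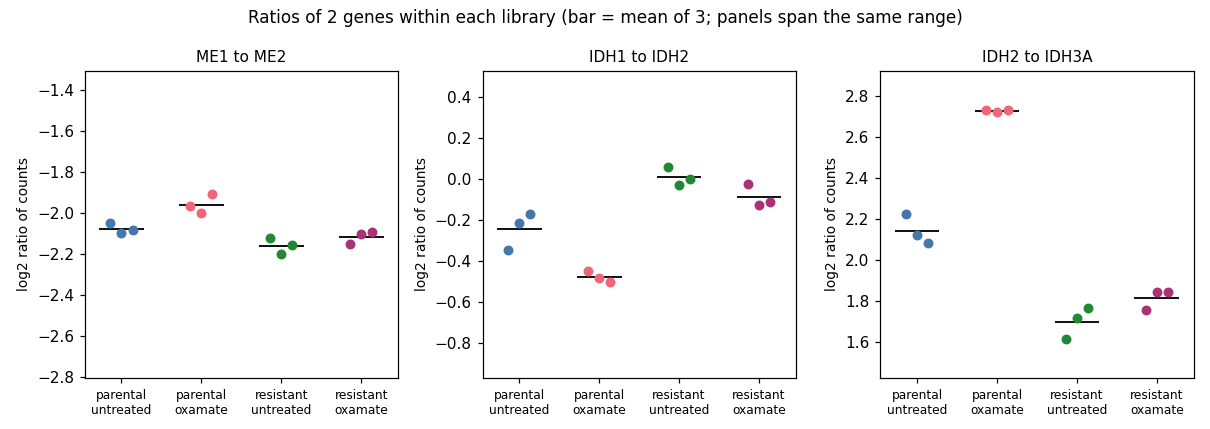
Log2 ratio of the counts of ME1 to ME2, IDH1 to IDH2 and IDH2 to IDH3A within each of the 12 libraries, with a bar at the mean of 3 replicates and the same span on each vertical axis. The ratio of IDH2 to IDH3A spans the widest range and is highest in oxamate-treated parental cells, at a mean of 2.73 on the log2 scale.

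IDH2 was the only member whose highest and lowest group means differed by over 1.5-fold, at 1.83-fold between oxamate-treated parental and untreated resistant cells. Over the 12 libraries, the genes whose centred log2 CPM was most like that of IDH2 were GSTM3, MYL6 and POLD1, with root mean square differences of 0.030, 0.034 and 0.035. Among the members themselves, CS and SUCLA2 were the most alike, with a difference of 0.055, and IDH2 and ME2 the least alike, with 0.41. The 12 libraries share groups, depth and scaling, so these distances are a description.

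The wider pathway was given by lists of genes that act beside the members. Calls in these lists stand beside those of all genes. Between the cells 38.4% of all genes were called as higher and 37.3% as lower untreated, and 40.6% and 39.7% with oxamate. For the response to oxamate it was 28.3% higher and 30.4% lower in parental cells, and 9.01% and 12.5% in resistant cells. Of the other TCA cycle subunits, 13 genes, 12 were called as lower and 1 as higher in untreated resistant cells, with a median log2 fold change of -0.40, and 11 as lower and none as higher with oxamate, with a median of -0.49. By library size alone 9 were still called as lower in each comparison, with 2 and 3 higher and medians of -0.18 and -0.17. Examples are SDHA and SDHB, the flavoprotein and iron-sulfur subunits of succinate dehydrogenase, at -0.51 and -0.48 untreated (edgeR adjusted p = 8.55e-11 and 2.28e-11) and at -0.63 and -0.57 with oxamate (edgeR adjusted p = 3.63e-12 and 1.72e-12). The 1 gene called as higher was OGDHL, at 0.38 (edgeR adjusted p = 1.57e-07), named here after its values were seen. With oxamate in parental cells 5 of the 13 were called as higher and 1 as lower, with a median of 0.063 that library size alone turned to -0.013 with 3 higher and 4 lower, and in resistant cells 1 as higher and 3 as lower, with a median of -0.025 that turned to 0.0052 with 1 higher and 2 lower.

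Genes that govern the entry of pyruvate into the cycle, 14 in all, include carriers, the pyruvate dehydrogenase complex and its regulators. With oxamate in parental cells 8 were called as higher and 1 as lower, with a median log2 fold change of 0.13, and in resistant cells 5 and 1, with a median of -0.035. By library size alone the split in parental cells was 6 higher and 5 lower, with a median of 0.053. PDK1 and PDK3 encode kinases that switch off pyruvate dehydrogenase. PDK1 was at 17.7 ± 0.908 CPM untreated and 31.4 ± 0.516 CPM with oxamate in parental cells, rising by 0.83 on the log2 scale (edgeR adjusted p = 1.91e-10), and at 19.6 ± 0.603 and 28.3 ± 0.607 CPM in resistant cells, rising by 0.53 (edgeR adjusted p = 4.51e-07). PDK3 rose by 0.86 and 0.49 on the log2 scale (edgeR adjusted p = 1.18e-11 and 4.90e-08). The response was smaller in resistant cells for both, with differences of -0.30 for PDK1 (edgeR adjusted p = 5.46e-04) and -0.38 for PDK3 (edgeR adjusted p = 4.13e-06). Between the cells 9 genes of this list were called as lower and 5 as higher untreated, with a median of -0.20, and 11 and 3 with oxamate, with a median of -0.25, against 4 lower and 6 higher in each comparison by library size alone. MPC2, a subunit of the mitochondrial pyruvate carrier, was among those that were lower, at -0.51 untreated (edgeR adjusted p = 2.20e-09) and -0.75 with oxamate (edgeR adjusted p = 1.40e-11).

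Genes that handle citrate and malate outside the cycle, 8 in all, were called as lower in resistant cells for 6 genes untreated, with 1 higher and a median of -0.32, and for 6 genes with oxamate, with none higher and a median of -0.39. By library size alone it was 4 lower and 1 higher untreated and 3 and 2 with oxamate. ACLY, which splits exported citrate to acetyl-CoA, was at -0.42 untreated and -0.32 with oxamate (edgeR adjusted p = 4.54e-11 and 5.11e-10), the latter at 0.0018 by library size alone. With oxamate 4 were called as higher and 1 as lower in parental cells, with a median of 0.12, and 1 in each direction in resistant cells, with a median of 0.011. Library size alone gave 2 higher and 3 lower with a median of 0.048 in parental cells, and 3 higher and 1 lower with a median of 0.042 in resistant cells. SLC25A10, the mitochondrial dicarboxylate carrier, rose in both, by 0.23 and 0.25 (edgeR adjusted p = 8.63e-05 and 8.15e-04). The malic enzyme gene ME3 is among these 8 tested genes, with group means of only 0.188 to 0.292 CPM. Other NADPH sources, 8 genes, were called as lower in resistant cells for 6 genes and as higher for 1 untreated, with a median of -0.23, and for 5 and none with oxamate, with a median of -0.33, against 3 lower and 3 higher in each by library size alone. PGD of the pentose phosphate pathway was at -0.57 and -0.62 (edgeR adjusted p = 7.27e-12 and 1.45e-12). The response to oxamate was 2 higher and 2 lower in parental cells, with a median of 0.030, and 1 higher and 2 lower in resistant cells, with a median of -0.057. In parental cells it was none higher and 3 lower by library size alone, with a median of -0.044. Over these 4 lists 15 genes were called in resistant cells with oxamate, and 8 without oxamate-treated resistant replicate 3. MTHFD2, the mitochondrial folate enzyme, fell by 0.17 in parental cells (edgeR adjusted p = 1.62e-04) and by 0.40 in resistant cells (edgeR adjusted p = 3.31e-07) on the log2 scale.

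**Figure D5:**
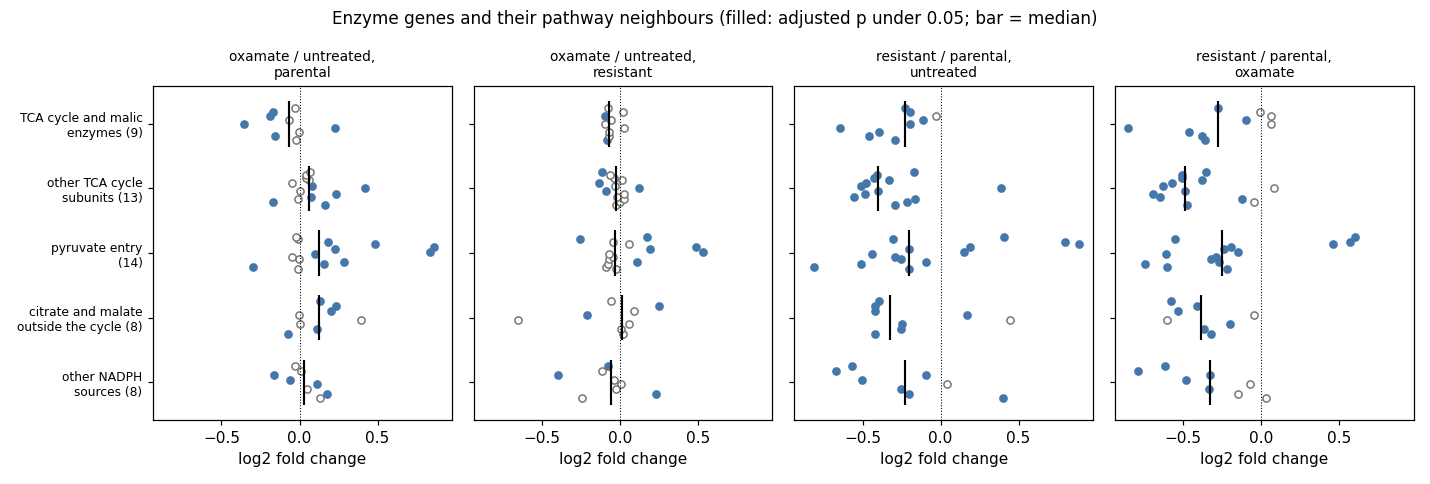
Log2 fold changes of the 9 enzyme genes and of 4 lists of genes around them in the 4 comparisons, with 1 point per gene, filled at an adjusted p under 0.05, and a bar at each list's median. In both comparisons of resistant with parental cells all 5 medians lie below 0 under TMM, between -0.20 and -0.49, and in parental cells with oxamate PDK1 and PDK3 lie farthest to the right.

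Regulators of mitochondrial biogenesis were measured in the same libraries. Of 7 listed, PPARGC1A did not pass the filter, and of the 6 tested 5 were called as lower and none as higher with oxamate in parental cells, with a median log2 fold change of -0.28. Of all genes 30.4% were called as lower in parental cells, and the shares for the other comparisons are given with the pathway lists. NRF1, a transcription factor of nuclear genes for mitochondrial proteins, was at 15.5 ± 0.116 CPM untreated and at 9.86 ± 0.0476 CPM with oxamate, and fell by 0.65 on the log2 scale (edgeR adjusted p = 1.91e-09). PPARGC1B, a coactivator, fell by 1.14 on the same scale (edgeR adjusted p = 3.32e-07) from a low level of 5.79 ± 0.461 CPM. In resistant cells 3 were called as lower and none as higher with oxamate, with a median of -0.099. Between the cells 3 were called as lower and none as higher untreated, with a median of -0.017 that library size alone turned to 0.20 with 4 higher and none lower, and with oxamate 1 as lower and 3 as higher, with a median of 0.22, against 5 higher and none lower and a median of 0.55 by library size alone. The response of NRF1 differed between the cells by 0.52 (edgeR adjusted p = 1.99e-06).

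Because NRF1 mRNA moved, the 250 bases before the annotated starts of the members were searched on both strands for the core of its binding motif, which reads GCGC, then A and any base, then GCGC. Windows from RefSeq on GRCh38.p14 were found for 8 of the 9 members, 9 windows in all, since IDH1 has 2. The windows of IDH1, IDH2, IDH3A, SUCLA2 and ME2 lie inside the annotated span of the gene, not before its outermost start. That of IDH2 lies before the start of a shorter transcript. The gene of IDH3A spans chr15:78131498-78171949, and that of SUCLA2 spans chr13:47745736-48037968. The core was present in 2 of the 9 windows, those of IDH3A and SUCLA2, and in 5.08% of all 35116 promoter windows of this length. These 2 windows were 70% and 69.2% G or C, with 26 and 25 CpG, against medians of 58% and 11 over all windows. The shares over all windows given here were not matched for this composition. Both are printed 5′ to 3′ on the strand of the gene. IDH3A is on the plus strand at chr15:78149112-78149361, and SUCLA2 is on the minus strand at chr13:48001274-48001523. The 10-base runs of capitals that begin with GCGC mark the NRF1 core, which reads as its reverse complement in both. Other capitals mark a GC box (GGGCGG or its complement CCGCCC), found in 8 member windows and in 42.6% of all, or a CCAAT box (CCAAT or ATTGG), found in 5 member windows and in 32.0% of all.
IDH3A: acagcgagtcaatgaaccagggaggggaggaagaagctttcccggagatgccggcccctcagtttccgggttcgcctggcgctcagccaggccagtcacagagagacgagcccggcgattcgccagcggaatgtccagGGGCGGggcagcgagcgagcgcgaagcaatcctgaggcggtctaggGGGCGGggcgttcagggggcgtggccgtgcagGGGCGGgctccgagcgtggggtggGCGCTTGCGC
SUCLA2: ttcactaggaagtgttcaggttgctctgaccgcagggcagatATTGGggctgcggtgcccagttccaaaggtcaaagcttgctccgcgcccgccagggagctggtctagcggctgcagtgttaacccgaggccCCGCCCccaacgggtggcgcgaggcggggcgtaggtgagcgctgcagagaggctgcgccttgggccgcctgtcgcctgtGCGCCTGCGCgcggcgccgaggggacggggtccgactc
IDH3A fell with oxamate in parental cells by 0.36 on the log2 scale, and SUCLA2, with the same core, was at -0.026 with an interval of -0.10 to 0.051 (edgeR adjusted p = 0.556). The core of the ETS motif CCGGAAG was present in 1 member window, that of ME2, and in 8.52% of all. The antioxidant response core TGACNNNGC was present in 2, those of IDH1 and ME1, and in 10.9% of all. The E-box CACGTG was present in 0 member windows and in 6.35% of all. A match to these letters is a description of the sequence and not evidence of binding. Whether NRF1 has a part in the responses of IDH3A or SUCLA2 was not tested.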

How the data were processed

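Polyadenylated RNA of 12 libraries, 4 groups of 3, was analysed from 1 table. The authors deposited RSEM expected counts per gene symbol, not normalized. The submitters' processing notes name Bowtie2 2.1.0, RSEM 1.2.15 and hg38, and the study's methods also describe STAR and featureCounts, but 11.6% of the values were not whole numbers, as RSEM gives. RSEM divides reads between similar genes, which matters little for the members, where 5 of 108 values were not whole. Groups were taken from the sample labels. Total counts per library had medians of 105225104, 63673196, 53208326 and 47131429 in untreated parental, oxamate-treated parental, untreated resistant and oxamate-treated resistant cells.

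Counts were rounded and fitted in R 4.3.3 with edgeR 4.0.16 (filterByExpr, TMM, glmQLFit and glmQLFTest on 4 group means, all 12 libraries), and calls were made at a Benjamini-Hochberg adjusted p under 0.05 over all 14582 genes. The study's threshold, an unadjusted p under 0.05 with a fold change over 1.5, was counted beside it. The code was tested on simulated data. Ratios within libraries were compared with exact permutation tests in scipy 1.17.1. CPM used TMM-scaled library sizes. Positions and transcript lengths came from GENCODE 29, and promoter sequences from RefSeq on GRCh38.p14. One annotation of a member is not reported here.

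The members and lists were chosen with earlier results of these data known. Named were the 9 members, the 2 genes with the smallest p among those called from each list (other TCA cycle subunits, pyruvate entry, citrate and malate outside the cycle, other NADPH sources, mitochondrial biogenesis regulators), of which only some are printed, genes for checks, and the 3 genes most like any member that differed over 1.5-fold between groups. Alternatives were RLE factors, upper-quartile factors, library size alone, no filter on counts, a minimum mean count of 25, unrounded counts, the replicate number as a block, limma-voom from limma 3.58.1, DESeq2 1.42.0, only the 6 samples compared, the study's threshold and each replicate left out. Leaving out oxamate-treated parental and untreated resistant replicate 3, the libraries of their groups richest in nuclear-retained RNA, was added after seeing the data.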

Additional observations from a re-analysis of the deposited data

Results flagged for a closer look

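The response to oxamate differed between resistant and parental cells, by the test of the difference itself, for 3 of the 9 genes. IDH2 rose in parental cells, and its response in resistant minus parental cells was -0.21 on the log2 scale (edgeR adjusted p = 1.93e-03). IDH3A fell in parental cells, and the same difference was 0.26 (edgeR adjusted p = 1.62e-03). OGDH fell in parental cells too, and the difference was 0.19 (edgeR adjusted p = 1.30e-04). Without oxamate-treated parental and untreated resistant replicate 3, the richest of their groups in nuclear-retained RNA, the 3 differences were -0.24, 0.20 and 0.19, all still called. Scaled by library size alone, that of IDH2 was -0.099 (edgeR adjusted p = 0.0538), while those of IDH3A and OGDH were 0.37 and 0.29 and still called.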

How the results depend on the processing

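Of 1116 results of single genes under alternatives, 1024 kept their side of the threshold, 16 of them with a change of sign while not called, 67 lost a call, 17 gained one and 8 changed sign with a call in either fit. With the study's threshold the number of the 9 genes called was 0 and 0 for oxamate in parental and resistant cells, 1 and 1 for resistant against parental cells untreated and with oxamate, and 0 for the difference between responses, in edgeR and in DESeq2 alike. Over all genes it was 1440, 365, 3407, 5007 and 1237 in edgeR and 1293, 231, 3234, 4855 and 1076 in DESeq2. With library size alone the members called were 9 (1 higher, 8 lower) in parental cells with oxamate, 0 in resistant cells and 5, all higher, for the difference between responses. The log2 fold change between resistant and parental cells turned under that scaling to 0.021 for IDH3A, 0.021 for OGDH, 0.11 for ME1 and 0.19 for ME2 untreated, and to 0.31 for OGDH, 0.049 for SUCLA2 and 0.23 for ME1 with oxamate, where OGDH was at 0.076 with upper-quartile factors. The members called in resistant cells with oxamate were 0 with upper-quartile factors and 1 with a mean count of at least 25. With 1 replicate left out they ran from 0 to 2, all genes from 1795 to 3889, and the members in the other comparisons from 5 to 5 in parental cells, from 8 to 8 and from 5 to 6 between the cells, and from 3 to 3 for the difference. The genes of the 4 pathway lists called in resistant cells with oxamate ran from 8 to 16, with 8 without oxamate-treated resistant replicate 3. In resistant cells CS lost its call with upper-quartile factors, library size alone and without oxamate-treated resistant replicate 1, and ME2 lost its call in 12 of 25 alternatives, including each library of the resistant cells left out but in no case its direction. The deviations of 18 same-numbered pairs of libraries correlated from -0.11 to 0.38, 6 of them above 0.1, against -0.31 to 0.20 in 36 other pairs. The highest value was between replicate 3 of oxamate-treated parental and of untreated resistant cells. Whether replicate numbers mark pairs was not settled. A replicate block gave 5, 3, 8, 6 and 3 members called, FH being the gene added in resistant cells at -0.072 (edgeR adjusted p = 0.0469). Without oxamate-treated parental and untreated resistant replicate 3, the richest of their groups in nuclear-retained RNA, the counts were 5, 3, 8, 6 and 3. All oxamate-treated resistant libraries, at 1080 to 1407 CPM of these RNAs, were kept. Depth did not limit the members, and 3 libraries a group limit the permutation tests.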

Other observations

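Further genes around the cycle, chosen after their values were seen, differed between resistant and parental cells. The signs given for NNT, MPC1, PDK4 and PDP1 held with library size alone. NNT, the mitochondrial transhydrogenase that makes NADPH from NADH, had a log2 fold change of -0.67 between untreated resistant and parental cells and of -0.79 between the oxamate-treated groups (edgeR adjusted p = 6.82e-08 and 9.14e-09). MPC1, a subunit of the mitochondrial pyruvate carrier, was at -0.81 and -0.61 in the same comparisons (edgeR adjusted p = 9.01e-07 and 3.64e-05). PDK4, a pyruvate dehydrogenase kinase, was on the other side, at 0.89 and 0.46 (edgeR adjusted p = 3.16e-08 and 4.49e-05), together with the phosphatase PDP1, which opposes such kinases, at 0.80 and 0.57 (edgeR adjusted p = 1.63e-08 and 8.56e-07). DLD, the subunit that the pyruvate and 2-oxoglutarate dehydrogenase complexes share, fell by 0.17 with oxamate in parental cells (edgeR adjusted p = 4.40e-04), as did OGDH, and was at -0.00054 in resistant cells (edgeR adjusted p = 0.993). Between the cells the responses of DLD differed by 0.17 (edgeR adjusted p = 9.43e-03).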
